A study of Mus musculus with 12 samples.

Results

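Hox genes are the homeobox transcription factors that give cells their position along the body and limb axes. The table of 54532 genes held 40 protein-coding rows named Hoxa, Hoxb, Hoxc or Hoxd with a number, and these were taken by name alone. They stand for the 39 Hox genes of the mouse, because Hoxd4 had 2 identifiers. On the mm10 build the 11 HoxA genes lie on chromosome 6, the 10 HoxB genes on chromosome 11, the 9 HoxC genes on chromosome 15, and the 10 HoxD rows on chromosome 2. The number in each name is the paralog group. Groups 1 to 3 (8 rows) are called anterior here, groups 4 to 8 (16 rows) central, and groups 9 to 13 (16 rows) posterior.

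Genes within a Hox cluster lie in the order in which they are used from head to tail, a property known as collinearity. In the limb bud the posterior genes of the HoxA and HoxD clusters are known to be used again in nested domains, with group 13 genes in the future hand and foot and lower numbers nearer the trunk. HoxB and HoxC genes are mainly genes of the trunk, although several are active where limbs form. HOX proteins bind DNA together with the TALE homeodomain proteins PBX, MEIS and PKNOX, and Polycomb and Trithorax complexes maintain their silent and active states.

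Mouse limb buds of stage E12.5 were sampled in 4 groups of 3 biological replicates. The tested animals carried Mettl14 flox/flox and are labelled as Mettl14 knockout (cKO), and the controls carried Mettl14 wt/flox, a single floxed allele (cHet), so that no group is free of a floxed Mettl14 allele. METTL14 is part of the methyltransferase that places N6-methyladenosine (m6A) on mRNA, and the sources used here do not name the Cre driver. Cytoplasmic RNA was sequenced as input, and the RNA of the polysome fractions of a sucrose gradient, which carries several ribosomes per mRNA, as polysome, and input and polysome libraries that share a genotype and a number are taken as 1 lysate, which gives 6 lysates. Whole limb buds hold many cell types, and fewer cells of a type cannot be told apart from less RNA per cell.

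The 12 libraries held 10349912 to 30068823 assigned reads. Mettl14 itself stood at 2.60, 3.32 and 1.26 FPKM in cKO input, against 4.09, 4.03 and 4.04 FPKM in cHet input. On polysomes it stood at 2.73, 2.81 and 3.29 FPKM in cKO and at 2.83, 3.07 and 3.02 FPKM in cHet, where the groups overlapped. The log2 difference was -0.83 in input RNA (limma adjusted p = 0.295) and -0.02 on polysomes (adjusted p = 0.954), so the labels rest on the genotype given and not on a passed test of this gene. All 7 limb mesenchyme markers reached 1 FPKM in every library, and their summed level was 748 to 950 FPKM in cKO input and 620 to 714 FPKM in cHet input. Of the 7, 5 were higher and 2 lower in cKO input. On polysomes the summed level overlapped, at 937 to 1360 FPKM in cKO and 1030 to 1086 FPKM in cHet. Tbx5, the forelimb factor, averaged 69.3 ± 11.5 FPKM in cKO input and 44.1 ± 2.67 FPKM in cHet input (SD, n = 3 each), while the hindlimb markers Tbx4 and Pitx1 together summed to no more than 10.6 FPKM in any library. In a principal component analysis cKO input replicate 3 and cKO polysome replicate 1 stood apart from the rest of their groups. Summed erythroid markers were 5095 to 12582 FPKM in cKO input and 7949 to 21019 FPKM in cHet input, and summed epidermal markers 310 to 343 FPKM in cKO input and 260 to 262 FPKM in cHet input. On polysomes the erythroid sums were 9572 to 22285 FPKM in cKO and 13540 to 27407 FPKM in cHet, and the epidermal sums 153 to 322 FPKM in cKO and 111 to 126 FPKM in cHet. Summed macrophage markers were 51.6 to 74.8 FPKM in cKO input and 40.3 to 45.5 FPKM in cHet input, and 67.2 to 92.5 FPKM on cKO polysomes and 50.9 to 56.1 FPKM on cHet polysomes. Summed neural markers were 17.9 to 22.9 FPKM in cKO input and 15.5 to 16.6 FPKM in cHet input, and 12.2 to 20.5 FPKM on cKO polysomes and 8.99 to 10.3 FPKM on cHet polysomes. The summed markers of cartilage, of muscle and of endothelium overlapped between genotypes in both fractions. FPKM is a share of each library, and the part of these other cells in the Hox values was not tested.

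The methyltransferase that METTL14 is part of acts on adenosines in a short consensus, of which GGACT is a common form. The transcripts were therefore searched for GGACT on the sense strand of the longest protein-coding transcript of each gene (GENCODE M21, mm10). No m6A was measured here, and a match is a description of the sequence alone. GGACT occurred in 34 of the 39 Hox transcripts found (87.2%), against 92.3% of 11862 tested genes. Its density had a median of 1.07 per kb in Hox transcripts and 1.05 per kb in all tested genes. Within 500 bases of the end of the stop codon it occurred in 27 of 39 Hox transcripts (69.2%) and in 66.4% of tested genes. Hoxc9 had the highest density among the Hox transcripts at 2.53 per kb, and Hoxa4, Hoxa11, Hoxb4 and Hoxc12 were among those with no match. The match nearest the stop codon within 1 exon is shown for the 6 genes with the smallest p between genotypes in input RNA, 3 in each direction, with GGACT in capitals.
Hoxd13, chr2:74668312-74668338, plus strand, 1004 bases before the end of the stop codon: gagccgctcggGGACTtgggacatgga
Hoxd9, chr2:74699547-74699573, plus strand, 139 bases after it: tgcagcgactcGGACTttcttcttttt
Hoxc13, chr15:102927743-102927769, plus strand, 331 bases after it: ctaccaaagcaGGACTggggaattcca
Hoxa5, chr6:52204231-52204257, minus strand, 706 bases before it: gaacaattcagGGACTcggcgagcatg
Hoxa6, chr6:52208310-52208336, minus strand, 397 bases before it: aggggccccggGGACTacctgcacttt
Hoxd12, chr2:74675416-74675442, plus strand, 464 bases before it: ggaacgcagccGGACTaggccgccctt

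The clusters also hold microRNA genes, of which the miR-196 family is known to act on Hox mRNAs. RefSeq (GRCm38.p6) gives their mature sequences, shown with the seed, bases 2 to 8, in capitals.
miR-196a-5p, from the HoxB and HoxC clusters: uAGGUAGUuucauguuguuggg
miR-196b-5p, from the HoxA cluster: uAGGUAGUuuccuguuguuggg
miR-10a-5p, from the HoxB cluster: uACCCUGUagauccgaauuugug
miR-10b-5p, from the HoxD cluster: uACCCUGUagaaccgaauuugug
The 3′ UTRs of 8 of 39 Hox genes (20.5%) held ACTACCT, the complement of the miR-196 seed, against 6.86% of the 11800 tested genes with a 3′ UTR. These were Hoxa4, Hoxa5, Hoxa7, Hoxa9, Hoxb1, Hoxb6, Hoxb7 and Hoxc8. The complement of the miR-10 seed, ACAGGGT, stood in 4 Hox 3′ UTRs (10.3%) and in 14.7% of those of tested genes. Hoxb8, the mRNA with the largest polysome to input difference below, had no ACTACCT but held a stretch that pairs with 21 of the 22 bases of miR-196a-5p, at chr11:96284888-96284909 on the plus strand, 418 bases after the stop codon. It reads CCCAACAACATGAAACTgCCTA, with paired letters in capitals. Only A with U and G with C were counted as pairs, and the lower-case g lies opposite a U of the seed. These libraries give the host rows of the microRNAs and not the mature microRNAs.

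Posterior HoxA and HoxD mRNAs made up most of the Hox RNA of these limb buds. Over the 12 libraries HoxD genes gave 70.7% of the summed Hox FPKM, HoxA 22.2%, HoxC 5.63% and HoxB 1.42%. Posterior genes gave 91.8%, central genes 7.25% and anterior genes 0.953%. The ranges of the single libraries did not change that order, with HoxD at 64.2% to 75.9% and HoxA at 19.3% to 26.3%. A mean FPKM of at least 10 was reached by 10 members, 9 of them posterior, a mean between 1 and 10 by 21, and a mean under 1 by 9.

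Hoxd13, which patterns the digits and whose mutation causes fused and extra digits, was the highest Hox mRNA in every library. It had 433, 359 and 377 FPKM in cKO input, against 212, 232 and 289 FPKM in cHet input. On polysomes it had 341, 564 and 575 FPKM in cKO and 375, 417 and 492 FPKM in cHet. It alone gave 39.9% to 58.3% of the summed Hox FPKM. Hoxa10, a regulator of the upper limb skeleton, followed with a mean of 75.0 FPKM and a range of 54.3 to 92.2 FPKM. Hoxd12 averaged 53.8 FPKM (34.9 to 87.7) and Hoxa13, the partner of Hoxd13 in the hand and foot, 38.5 FPKM (26.5 to 51.8).

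The next levels lay close together and their ranges overlapped: Hoxd10 averaged 32.4 FPKM, Hoxd9 31.5 FPKM, Hoxd11 29.5 FPKM and Hoxa11 25.9 FPKM. Hoxa11 and Hoxd11 together are known to be needed for the forearm bones. The level of Hoxa11 is uncertain, because 35.0% of its exon bases overlap Hoxa11os on the opposite strand and the strandedness of the libraries is not given. Hoxa9 averaged 10.4 FPKM and Hoxd8, a central gene, 8.52 FPKM.

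Within the HoxC cluster the level was highest at both ends of the range of numbers. Hoxc5 averaged 11.9 FPKM, Hoxc12 6.76 FPKM, Hoxc6 6.32 FPKM, Hoxc13 6.07 FPKM and Hoxc4 5.02 FPKM, whereas Hoxc8, Hoxc9, Hoxc10 and Hoxc11 averaged 1.19 to 2.22 FPKM. In HoxB the highest was Hoxb9 with 3.46 FPKM, followed by Hoxb8 at 0.656 to 2.88 FPKM. The anterior genes peaked at 2.01 FPKM for Hoxa2. Hoxb13 averaged 0.00156 FPKM and was listed at 0 in 11 libraries, and Hoxd3 and Hoxd4 averaged 0.0619 FPKM and 0.0129 FPKM, with the second Hoxd4 identifier at 0 throughout. Exons of Hoxd3 share 62.8% of their bases with other genes and those of Hoxb3 52.9%, so their low values are uncertain.

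The order of paralogs differed between groups. In group 13 it was Hoxd13, Hoxa13, Hoxc13 and Hoxb13. In group 10 Hoxa10 led Hoxd10 and Hoxc10, and in group 9 Hoxd9 led Hoxa9, Hoxb9 and Hoxc9. In group 5 the order was Hoxc5, Hoxa5 (6.35 FPKM) and Hoxb5 (0.971 FPKM). Group 13 as a whole gave 56.2% of the summed Hox FPKM, group 10 gave 14.2%, and no group below 9 gave more than 2.49%.

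**Figure D1:**
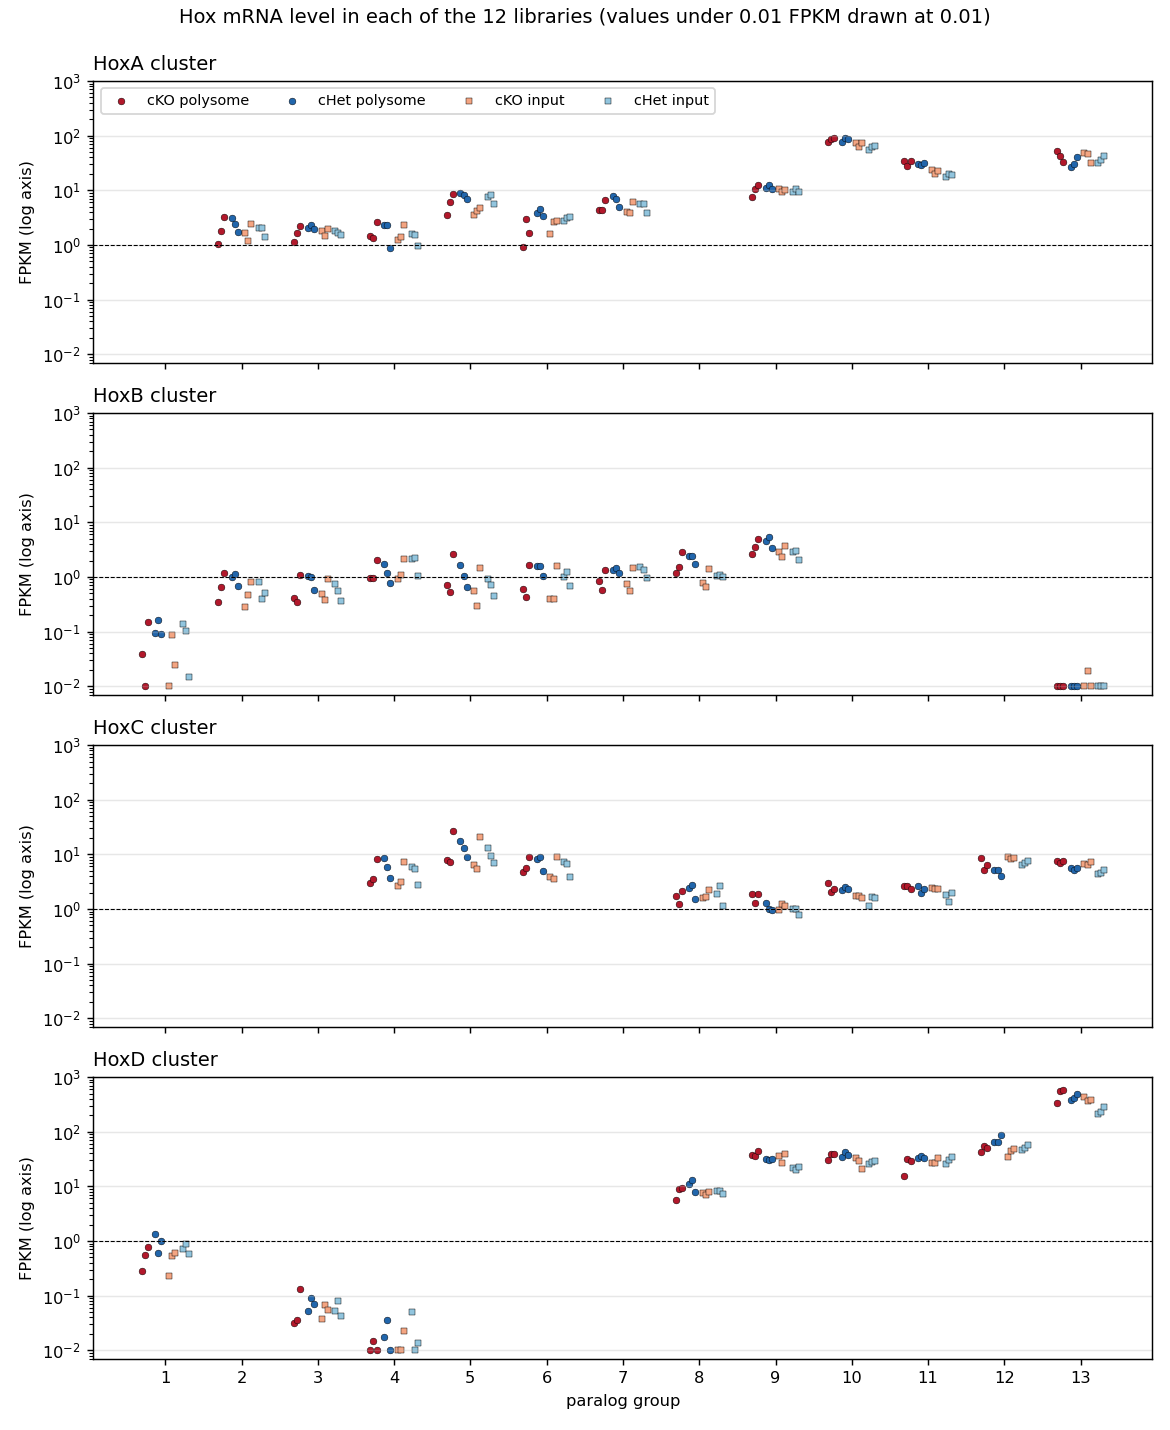
FPKM of the Hox genes reported in each of the 12 libraries on a log axis, by cluster and paralog group, with cKO polysome, cHet polysome, cKO input and cHet input side by side, and the second Hoxd4 identifier left out. Hoxd13 lies above all others at 212 to 575 FPKM, posterior HoxA and HoxD genes lie above 7 FPKM, and the dashed line marks 1 FPKM, the level a gene had to reach in at least 3 fitted libraries to be tested.

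The central genes varied between limb bud lysates more than the posterior genes did. The SD of log2 FPKM within groups had a median of 0.50 over the 14 central genes tested, 0.21 over the 15 posterior genes and 0.24 over all 13610 genes tested. Over the 8240 tested genes whose mean FPKM lay in the range of the central genes it was 0.25. The sum of the central genes was 35.9, 35.8 and 71.2 FPKM in cKO input and 60.2, 57.4 and 39.8 FPKM in cHet input. On polysomes it was 37.5, 45.4 and 85.2 FPKM in cKO and 79.6, 73.7 and 48.6 FPKM in cHet. Replicate 3 was thus the highest of the cKO lysates and the lowest of the cHet lysates, in both fractions.

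This order was shared gene by gene, a pattern chosen after its values were seen. Of the 14 central genes tested, 13 had it in both fractions, as did 3 of 4 anterior genes, 1 of 15 posterior genes (Hoxb9) and 4.24% of all genes tested. Hoxa6 was the central exception. Hoxc5, the highest of the central genes, had 6.45, 5.37 and 20.9 FPKM in cKO input and 12.98, 9.26 and 6.91 FPKM in cHet input. On polysomes Hoxc5 had 7.75, 7.20 and 26.7 FPKM in cKO and 17.3, 13.1 and 8.83 FPKM in cHet. The polysome libraries of the same lysates repeat the input libraries, so the order concerns 6 lysates and not 12 samples. The cKO replicate 3 lysate includes cKO input replicate 3, which stood apart, and the part of that library in the order was not tested.

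Genes outside the Hox clusters had the same order too. Among the 6 markers of trunk mesoderm other than limb, 5 were tested and 2 had the order in both fractions: Pax1, a factor of the sclerotome and shoulder girdle, and Meox1, a somite factor. The other trunk markers tested did not have it. Over all 13610 genes tested, 577 had it (4.24%). Pax1 had 1.19, 1.22 and 4.62 FPKM in cKO input and 3.20, 2.56 and 1.68 FPKM in cHet input. Meox1 had 11.6, 9.87 and 20.0 FPKM in cKO input and 15.8, 12.6 and 11.7 FPKM in cHet input. The sum over the 6 markers, which Tbx18 dominates, did not follow it, at 50.9 to 57.7 FPKM in cKO input and 52.9 to 58.2 FPKM in cHet input, and Uncx was at or near 0. On polysomes that sum was 52.5 to 66.5 FPKM in cKO and 54.9 to 60.5 FPKM in cHet. None of the tested markers of limb mesenchyme, cartilage, muscle, endothelium, epidermis, macrophages, erythroid cells or nerve had the order in both fractions. Of the 2 hindlimb markers 1 had it, Pitx1, and the forelimb marker Tbx5 did not. The order was found in 2 of 9 TALE cofactors, Meis1 and Meis3, and in 2 of 14 limb position genes, Pitx1 and Tbx3. It was also found in 1 of 22 Polycomb and Trithorax genes, Pcgf2. Of 18 genes flanking or inside the clusters, 1 had it, Hoxb5os. The part of trunk tissue, or of the mix of forelimb and hindlimb, in the order was not tested.

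**Figure D2:**
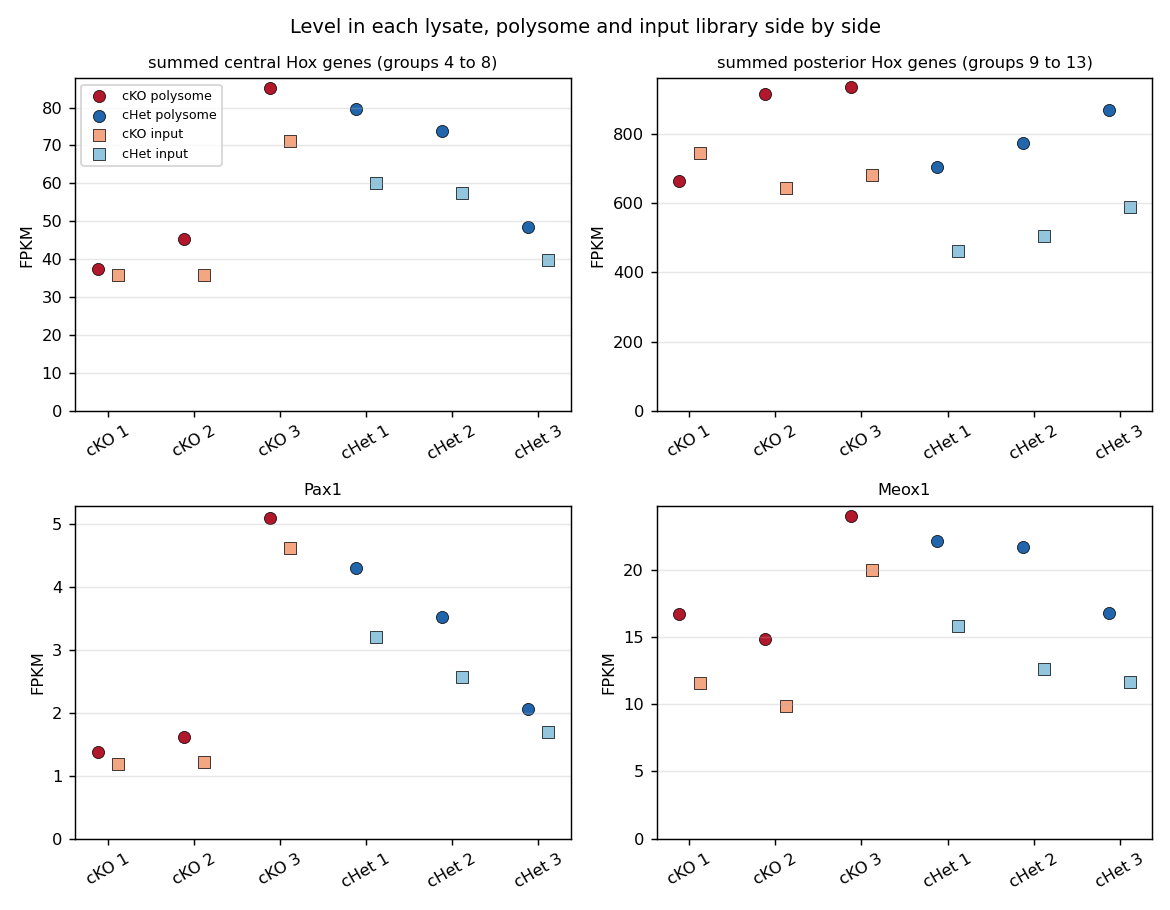
FPKM in each of the 6 lysates for the summed central Hox genes, the summed posterior Hox genes, Pax1 and Meox1, with the polysome library as a circle left of the input library as a square. The central sum, Pax1 and Meox1 are highest in replicate 3 among the cKO lysates and lowest in replicate 3 among the cHet lysates, whereas the posterior input sum lies at 645 to 744 FPKM in cKO and 462 to 588 FPKM in cHet. Pax1 and Meox1 are the 2 of 5 tested trunk markers with that replicate 3 order in both fractions. Hoxd13 alone gives 359 to 433 FPKM of the posterior input sum in cKO and 212 to 289 FPKM in cHet. The posterior polysome sums overlap, at 664, 915 and 936 FPKM in cKO and 705, 775 and 870 FPKM in cHet.

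The genotypes were compared in input RNA first. No Hox gene passed an adjusted p under 0.05 in limma (Benjamini-Hochberg over all genes tested), and neither did any of the 12977 genes tested (0.00%). Of the 40 members 30 reached the level needed for the test. At an unadjusted p under 0.05, 5 were higher in cKO, against 10.4% of all genes tested, and 1 was lower, against 4.53%. With voom weights on recovered reads no gene passed either, and 4 Hox genes had an unadjusted p under 0.05. The direction differed along the clusters. Among posterior genes 12 of 15 had a log2 difference above 0 with a median of 0.21, and among central genes 10 of 12 were below 0 with a median of -0.18, beside 48.6% of all genes above 0 and a median of -0.01. By cluster the median was 0.05 for 11 HoxA, -0.29 for 4 HoxB, 0.20 for 9 HoxC and -0.02 for 6 HoxD genes. Across the 30 genes the log2 difference correlated with paralog number at r = 0.51 (Spearman 0.54), a description only, since the genes share libraries and are not independent replicates.

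The groups of Hoxd13 did not overlap in input RNA. It averaged 390 ± 39.0 FPKM in cKO and 244 ± 40.2 FPKM in cHet (SD, n = 3 each), a log2 difference of 0.68 ± 0.15 (SE) that did not pass (limma adjusted p = 0.157). Hoxd9 had 36.0, 26.6 and 39.7 FPKM in cKO input and 21.8, 20.3 and 22.6 FPKM in cHet input, a log2 difference of 0.64 (limma adjusted p = 0.181). Hoxc13, which is known for its role in nails and hair, had 6.61, 6.47 and 7.26 FPKM in cKO input and 4.36, 4.46 and 5.27 FPKM in cHet input, a log2 difference of 0.52 (limma adjusted p = 0.173). For each of these genes all 3 cKO values lay above all 3 cHet values, but 16.9% of all genes tested had groups that did not overlap in this direction. Hoxc11 and Hoxc12 were the others whose cKO input values all lay above those of cHet input, with log2 differences of 0.46 and 0.32.

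Hoxa5 was the gene on the other side. It had 3.55, 4.19 and 4.70 FPKM in cKO input, against 7.55, 8.13 and 5.74 FPKM in cHet input, with no overlap, as for 1619 of the 12977 genes in this direction. Its log2 difference was -0.76, with a 95% interval of -1.19 to -0.34 and a limma adjusted p of 0.165. HOXA5 is known to act in the lung and the cervical skeleton. Without cKO input replicate 3 it was the only Hox gene to pass, at a log2 difference of -0.86 (limma adjusted p = 0.0485), in a fit where 326 of 12827 genes passed. Without that library all 10 central genes still tested were below 0, with a median of -0.58, while the posterior median stayed at 0.20. That library had the highest central sum of cKO input, 71.2 FPKM, and the highest cKO input value of Hoxa5. Leaving it out therefore lowered these cKO values by construction, and the central shift in this fit adds no evidence. The lowest central library of cHet input, replicate 3 at 39.8 FPKM, was kept.

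Hoxd12 and Hoxa6 were next in p among the lower genes, and their groups overlapped. Hoxd12 had 34.9, 43.8 and 48.1 FPKM in cKO input and 46.8, 51.1 and 56.9 FPKM in cHet input, a log2 difference of -0.29 (limma adjusted p = 0.406). Between Hoxd9 and Hoxd12 on chromosome 2, Hoxd10 differed by -0.00 with a 95% interval of -0.43 to 0.43 (0.19 without cKO input replicate 3) and Hoxd11 by -0.05 with an interval of -0.39 to 0.30 (-0.14 without that library). Hoxa13, the paralog of Hoxd13, differed by 0.17 with an interval of -0.29 to 0.64, and by 0.36 without that library (limma adjusted p = 0.121). Hoxa6 differed by -0.42 (limma adjusted p = 0.430).

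On polysomes no Hox gene passed either, of 33 tested, nor did any of 12877 genes (0.00%). At an unadjusted p under 0.05 limma gave 3 Hox genes higher in cKO, against 12.9% of all genes tested, and 2 lower, against 8.37%, and voom gave no gene past the adjusted threshold and 5 Hox genes at an unadjusted p under 0.05. Posterior genes were above 0 in 10 of 15 cases with a median of 0.07 and central genes below 0 in 12 of 14 with a median of -0.36, beside 52.9% of all genes above 0 and a median of 0.02. Without cKO polysome replicate 1, which stood apart, the central median was -0.13 with 10 of 14 below 0. By cluster the median was -0.19 for 11 HoxA, -0.31 for 7 HoxB, 0.02 for 9 HoxC and -0.25 for 6 HoxD genes. The correlation with paralog number was r = 0.44 (Spearman 0.43) over 33 genes.

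Hoxc13 was again higher, at 7.59, 6.96 and 7.54 FPKM in cKO polysomes and 5.62, 5.07 and 5.59 FPKM in cHet polysomes, a log2 difference of 0.43 (limma adjusted p = 0.132). Hoxc9 was higher by 0.58 (adjusted p = 0.189) and Hoxd9 by 0.34 (adjusted p = 0.230). Groups did not overlap for these 3 higher genes, as for 17.9% of all genes, and for 3 lower genes, as for 13.5%. Hoxa6 had the largest difference of any Hox gene, with 0.913, 3.02 and 1.66 FPKM in cKO polysomes and 3.87, 4.47 and 3.37 FPKM in cHet polysomes. These values rest on few reads, 18, 69 and 29 in cKO and 77, 42 and 71 in cHet. The log2 difference of Hoxa6, -1.17, did not pass (limma adjusted p = 0.143), and it was -0.77 without cKO polysome replicate 1 (adjusted p = 0.135). Of the libraries left out in turn, it passed only without cKO polysome replicate 2 (-1.58, limma adjusted p = 0.0412, with 231 of 12704 genes). Hoxd12 had 42.3, 54.4 and 50.1 FPKM in cKO polysomes and 64.7, 65.2 and 87.7 FPKM in cHet polysomes, a log2 difference of -0.56 (adjusted p = 0.155). Hoxd11 had a log2 difference of -0.49 (adjusted p = 0.291), its groups did not overlap, and the difference was -0.18 without cKO polysome replicate 1, a library that stood apart. Hoxd13 had overlapping groups here, at a log2 difference of 0.17 (adjusted p = 0.683). That overlap came from cKO polysome replicate 1 alone, and without it the difference was 0.42 (limma adjusted p = 0.176).

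**Figure D3:**
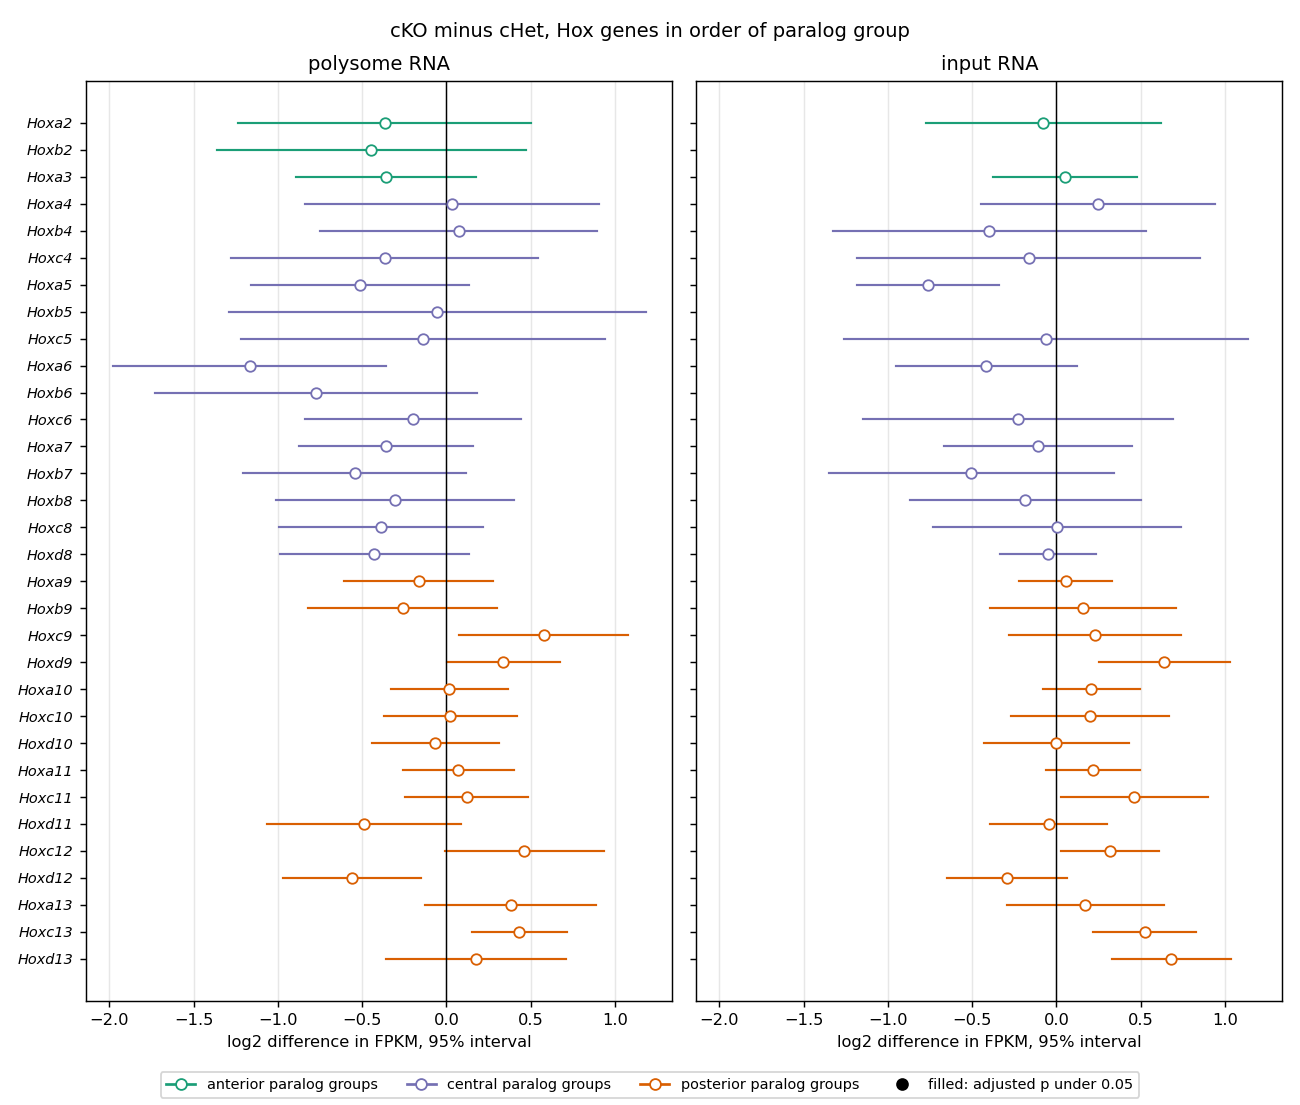
The log2 difference between cKO and cHet in polysome RNA (left) and input RNA (right) for the tested Hox genes reported, in order of paralog group, with 95% intervals and colours for anterior, central and posterior groups. No point is filled, as no gene passed an adjusted p under 0.05; posterior genes lie mostly right of 0 and central genes mostly left of it.

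Most Hox mRNAs had more FPKM on polysomes than in input RNA in the cHet limb buds. In cHet, 10 of 33 tested Hox genes were higher on polysomes and 1 was lower at an adjusted p under 0.05, against 27.3% higher, 25.9% lower and 53.2% in either direction among the 13610 genes tested. At an unadjusted p under 0.05, 11 were higher and 1 was lower, against 30.4% and 29.0% of all genes (59.4% in either direction). Groups did not overlap for 13 higher and 1 lower Hox genes, against 38.1% and 37.2% of all genes. The share of higher genes is thus near that of all genes, while 30 of 33 Hox genes and 50.8% of all genes lay above 0. Hoxb2, Hoxb5 and Hoxb6 were too low for the test in input RNA and entered here through their polysome libraries. Their place above 0 was thus partly fixed by the filter, and the anterior and central medians below include them. The median log2 difference was 0.40 over the Hox genes and 0.02 over all genes. In all 3 parts of the clusters the median was above 0, at 0.49 for 4 anterior, 0.35 for 14 central and 0.47 for 15 posterior genes. Among the higher genes were Hoxb8, Hoxd13, Hoxb9, Hoxa11, Hoxc10, Hoxd9, Hoxd12, Hoxa10 and Hoxd10, each with groups that did not overlap.

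Hoxb8, known from limb polarity and blood cells, had the largest difference, with 2.44, 2.44 and 1.70 FPKM on cHet polysomes and 1.03, 1.09 and 0.979 FPKM in cHet input. The log2 difference was 1.00 ± 0.32 (limma, SE, adjusted p = 0.0201), on 61 to 146 reads per library. Hoxd13 followed with 0.81 (adjusted p = 0.00595), and its polysome values all lay above its input values. Hoxa11 had 30.8, 29.7 and 31.8 FPKM on cHet polysomes and 17.5, 19.6 and 19.0 FPKM in cHet input, a log2 difference of 0.71 (limma adjusted p = 0.000838). Hoxa11os, the antisense transcript that shares bases with it, was also higher on cHet polysomes, by 0.81 (adjusted p = 0.00712). Hoxb9 differed by 0.72 (adjusted p = 0.0344) and Hoxc10 by 0.69 (adjusted p = 0.00786).

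Hoxc12 was the exception among the posterior genes. It had 5.20, 5.14 and 3.99 FPKM on cHet polysomes, against 6.33, 6.83 and 7.61 FPKM in cHet input, a log2 difference of -0.53 (limma adjusted p = 0.0273). It lay lower on polysomes in all 6 lysates, as did 20.2% of all genes, and no other Hox gene did. Hoxa13 also lay below 0 in cHet, at -0.18 with a 95% interval of -0.67 to 0.31. With the lysate as a block, 4 more genes were called higher in cHet, namely Hoxc5 at 0.42 (adjusted p = 0.0152), Hoxa7 at 0.39 (0.0217), Hoxc11 at 0.41 (0.0430) and Hoxc4 at 0.35 (0.0497), and Hoxb4 was called lower at -0.52 (0.0464). Hoxd10 was not called under that block.

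In cKO limb buds 2 of 33 Hox genes passed, both higher on polysomes, against 16.9% of all genes higher and 15.6% lower (32.5% in either direction). At an unadjusted p under 0.05, 6 were higher and none was lower, against 23.2% and 20.8% of all genes (44.0% in either direction), and groups did not overlap for 4, all higher, against 18.5%. Hoxa11 had 34.5, 28.3 and 34.7 FPKM on cKO polysomes and 23.5, 19.6 and 22.3 FPKM in cKO input, a log2 difference of 0.57 (limma adjusted p = 0.00645). Hoxc10 had 2.97, 2.07 and 2.30 FPKM on cKO polysomes and 1.71, 1.70 and 1.58 FPKM in cKO input, a log2 difference of 0.52 (adjusted p = 0.0489). The median over the Hox genes was 0.21, with 26 of 33 above 0, beside 0.06 and 54.4% for all genes. Hoxb2, Hoxb5 and Hoxb6, which entered through their polysome libraries, are among those 26. With the lysate as a block 4 passed, with Hoxb8 at 0.88 (adjusted p = 0.0138) and Hoxc5 at 0.34 (0.0486) added. Without cKO polysome replicate 1, 7 passed, and without that library and cKO input replicate 3, 12 passed, 11 of them higher, in a fit where 8012 of 13472 genes passed.

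Over the 6 lysates the log2 difference was above 0 in every lysate for 14 of 33 Hox genes, against 27.9% of all genes tested. Those 14 include Hoxb2, Hoxb5 and Hoxb6, which the filter admitted through their polysome libraries. The Hox median was lowest in cKO replicate 1, at 0.0965, and lay between 0.183 and 0.466 in the other lysates. Of 8 Hox mRNAs reported in mouse embryos to need the ribosomal protein RPL38 for their loading on polysomes, 6 were tested. All 6 lay above 0 in cHet with a median of 0.30, and 2 passed, Hoxa11 and Hoxd10, beside 27.3% of all genes called higher and 50.8% above 0. In cKO 4 of 6 lay above 0, with a median of 0.26, and 1 passed, Hoxa11, beside 16.9% called higher and 54.4% above 0.

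**Figure D4:**
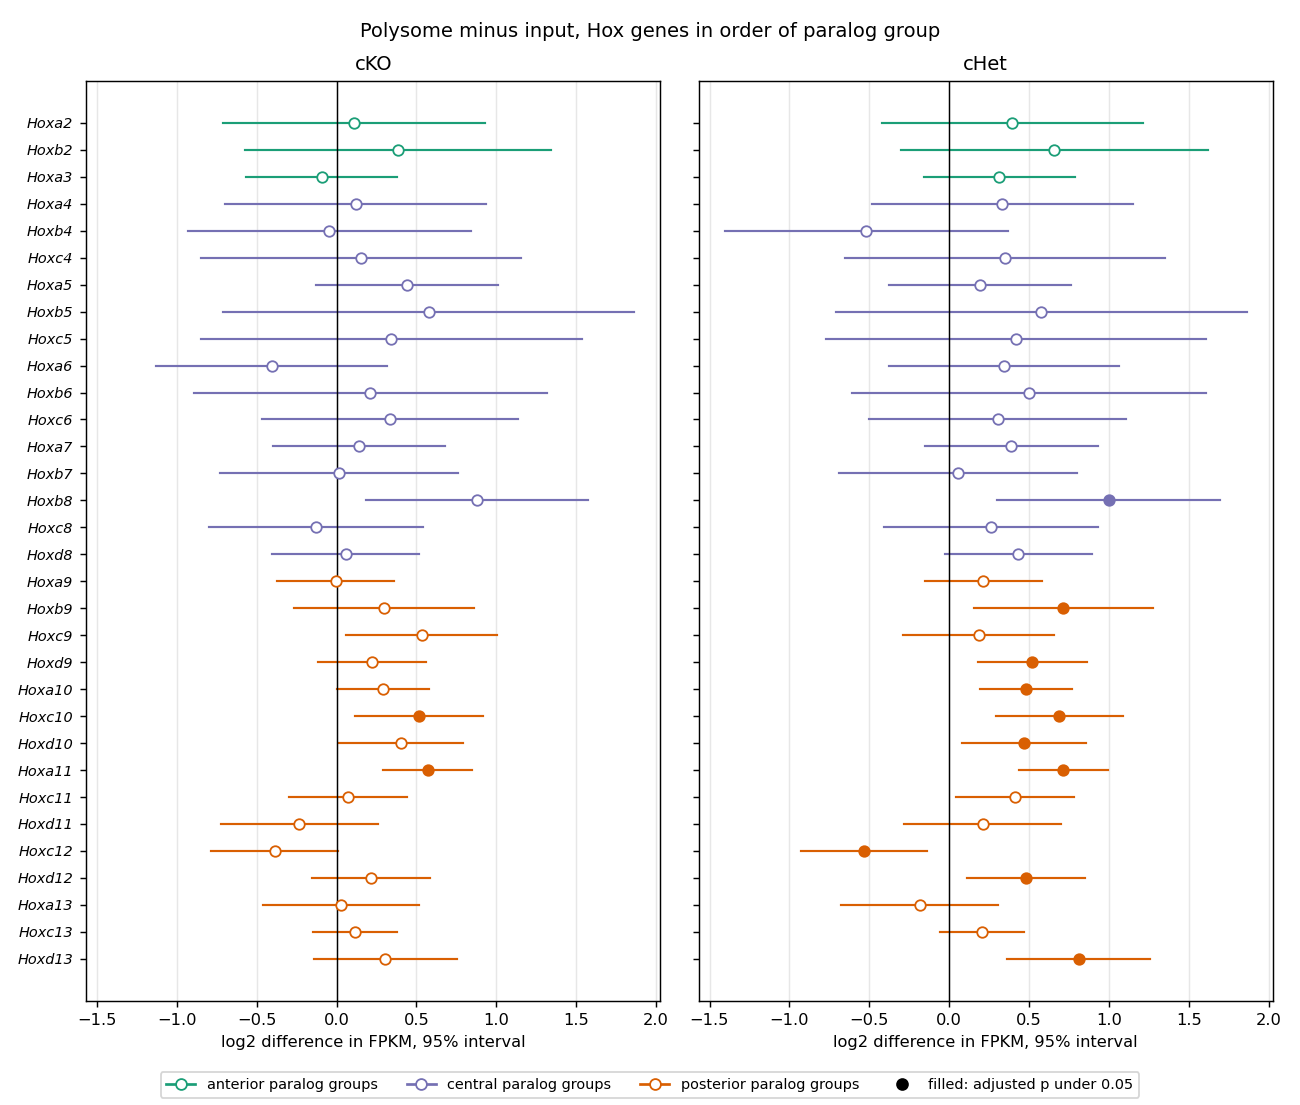
The log2 difference between polysome and input RNA in cKO (left) and cHet (right) for the tested Hox genes reported, in order of paralog group, with 95% intervals and filled points at an adjusted p under 0.05. In cKO 2 points are filled, Hoxa11 and Hoxc10, and in cHet 10 are filled, of which Hoxc12 alone lies below 0.

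Whether the polysome to input difference itself differed between genotypes was tested by the interaction of genotype and fraction. No Hox gene passed, of 33 tested, and no gene of 13610 did (0.00%), in limma or with voom weights. At an unadjusted p under 0.05 there was no Hox gene in either fit, against 4.69% of all genes in limma (2.92% above 0 and 1.76% below). With the lysate as a block Hoxa6 had an unadjusted limma p of 0.0428 (adjusted p = 0.641). The interaction lay below 0 for 26 of 33 Hox genes with a median of -0.21, meaning a smaller polysome to input difference in cKO, beside 52.6% of all genes above 0 and a median of 0.02. This test and the genotype and fraction comparisons share their libraries. The Hox genes with the smallest p in that direction were Hoxd13 (-0.51, 95% interval -1.14 to 0.13), Hoxa6 (-0.75, -1.77 to 0.27) and Hoxc11 (-0.34, -0.86 to 0.18). In the other direction they were Hoxc9 (0.35), Hoxb4 (0.47) and Hoxa5 (0.25), of which Hoxa5 was at -0.04 without cKO polysome replicate 3. For Hoxd13 the polysome and input values overlapped in cKO and did not in cHet, and the adjusted p of the interaction was 0.790. The overlap in cKO came from replicate 1, whose polysome minus input difference was -0.34, against 0.65 and 0.61 in cKO replicates 2 and 3 and 0.77 to 0.85 in the cHet lysates. Without cKO polysome replicate 1 the interaction of Hoxd13 was -0.26. By lysate the median Hox polysome to input difference was 0.0965, 0.275 and 0.183 in cKO and 0.466, 0.449 and 0.352 in cHet. On the first principal component cKO polysome replicate 1 lay between the fractions, at 3.97. The other polysome libraries lay there at 35.5 to 53.8, and the input libraries at -41.5 to -36.2. The part of that library in the shift of the Hox genes as a set is not separated here.

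The partners and regulators of Hox genes showed few calls. None of the 9 TALE cofactors differed between genotypes at an adjusted p under 0.05 in either fraction, and their median log2 difference in input RNA was 0.04. Pbx2, the highest of them, averaged 99.9 ± 15.5 FPKM on cKO polysomes and 124 ± 9.53 FPKM on cHet polysomes (SD, n = 3 each). Against input it was higher on polysomes, by 0.51 in cKO (limma adjusted p = 0.0154) and by 0.84 in cHet (adjusted p = 0.0005), and Pknox1 was called in cHet only, at 0.42 (adjusted p = 0.0134). Of 22 Polycomb and Trithorax genes tested none differed between genotypes. The smallest p belonged to Cbx2, a Polycomb subunit, at 67.5 ± 14.9 FPKM in cKO input and 37.9 ± 1.52 FPKM in cHet input (SD, n = 3 each), a log2 difference of 0.81 (limma adjusted p = 0.143). On polysomes Cbx2 differed by 0.84 (adjusted p = 0.0904). The spread in cKO input owes much to replicate 3, which stood apart. Suz12 had 21.9, 20.8 and 3.84 FPKM in cKO input, and Rnf2 40.6, 36.0 and 8.16 FPKM. Other genes of this list were highest in that library, such as Cbx2 at 84.4 FPKM and Phc2 at 46.1 FPKM. This limits what the tests of these genes in input RNA can show. Between fractions, 4 of the 22 genes were lower on polysomes and none higher in cKO, and 5 were lower and 3 higher in cHet. Over all genes 15.6% were lower and 16.9% higher in cKO, and 25.9% lower and 27.3% higher in cHet.

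Of the genes that flank or lie inside the clusters, 17 were tested between genotypes in input RNA and 18 on polysomes, and none passed. In cHet 5 were higher on polysomes and none lower. In cKO 3 of them were higher on polysomes and none lower. These counts are near the all-gene shares called higher, 16.9% in cKO and 27.3% in cHet. Hottip, the noncoding RNA beyond Hoxa13, was higher on polysomes by 0.56 in cKO (limma adjusted p = 0.0128) and by 0.74 in cHet (adjusted p = 0.00146). Evx2, next to Hoxd13, had a log2 difference between genotypes of -0.52 on polysomes (adjusted p = 0.134), and its groups did not overlap. All 13 limb position genes tested in input RNA lay above 0 in cKO, with a median of 0.35, and none passed. The smallest p were those of Msx2 at 1.13 and Lhx2 at 0.84 (limma adjusted p = 0.141 each), Tbx5 at 0.64 (0.163) and Hand2 at 0.53 (0.170). Between fractions, 3 of 14 limb position genes were higher on polysomes and none lower in cKO, and 4 were higher and 2 lower in cHet, again beside 16.9% of all genes higher and 15.6% lower in cKO and 27.3% higher and 25.9% lower in cHet.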

How the data were processed

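Input and polysome RNA of cKO and cHet limb buds gave 12 libraries. Per the submitters' processing notes, HISAT2 2.0.5 and featureCounts 1.5.0-p3 were used with mm10, and the authors deposited FPKM values, which are scaled for gene length and library size, for 54532 genes. Multiplied by gene length they returned whole reads within 0.01 for 100% of values above 0, which gives the depth. FPKM depends on what else a library holds. Strandedness and rRNA removal are not given in the sources used here.

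The scale of every fit was log2(FPKM + 0.1), in limma 3.58.1 under R 4.3.3, with an intensity trend and Benjamini-Hochberg adjustment over all genes that reached 1 FPKM in at least 3 fitted libraries; all p-values are two-sided. Fold changes on this scale understate those of low genes. Genotypes were compared on 6 libraries per fraction, and fractions and the interaction on 12 libraries with 4 group means. With 3 against 3 an exact permutation test cannot go below 0.1. Named genes are members past the threshold without overlap, or otherwise the 3 per direction with the smallest p, and up to 4 of each other list. Polysome and input libraries of the same genotype and number were read as 1 lysate from the study's design, which does not say so outright; their deviations correlated at 0.05 to 0.25 over 13610 genes and at 0.32 to 0.90 over 33 Hox genes. Alternatives were other pseudocounts, filters and scalings, voom, blocks and left-out libraries. The fit was also run on simulated data with independent noise in each gene and library. That simulation held no deviations shared within a lysate and no library that stood apart, so it cannot show how the fit handles them. Members and lists were chosen with earlier results of these data known. Nothing in the labels says that replicates came from separate litters, so p-values measure the spread between these samples. A member is counted in the totals but not reported here by name.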

Additional observations from a re-analysis of the deposited data

How the results depend on the processing

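The counts of called Hox genes between genotypes were 0 in both fractions under every pseudocount, filter, scaling and weighting tried, and with the replicate number as a block (0 in input and 0 on polysomes). Replicate numbers do not pair samples across genotypes, with correlations of -0.28 to 0.17 over 13610 genes and -0.74 to 0.01 over 33 Hox genes. Where these correlations are negative the block widens the error, so its counts of 0 add no evidence. Leaving out single libraries gave 0 to 1 in input and 0 to 1 on polysomes; the 1 was Hoxa5 without cKO input replicate 3 and Hoxa6 without cKO polysome replicate 2. For polysome against input in cKO the count of 2 became 1 with no filter on low values, 0 with a log2 difference of at least 1 required, 4 with the lysate as a replicate block, 0 on the 6 cKO libraries alone, and 12 without cKO input replicate 3 and cKO polysome replicate 1. Single left-out libraries gave 1 to 7 (7 without cKO polysome replicate 1), with 1 for any cHet polysome library, cHet input replicate 2 or 3, cKO input replicate 2 and cKO polysome replicate 3. Hoxa11 was called in all of these but the fit on 6 libraries and the one with the fold required. In cHet the count of 11 became 0 with the fold required and 15 with the lysate as a replicate block, and single left-out libraries gave 6 to 12, and 13 without cKO input replicate 3 and cKO polysome replicate 1 (6 without cHet input replicate 1 or 2, 7 without cHet input replicate 3 or cHet polysome replicate 1). The interaction called 0 in every alternative, the lysate block included. Among the genes named for their test, the interaction of Hoxa5 changed sign, over a range of -0.037 without cKO polysome replicate 3 to 0.68 without cKO input replicate 3 and cKO polysome replicate 1. Other Hox genes with small differences between genotypes also changed sign without a library that stood apart, among them Hoxa4 in input (0.24, and -0.01 without cKO input replicate 3) and Hoxc5 on polysomes (-0.14, and 0.14 without cKO polysome replicate 1). Fewer samples explain part of the lower counts by construction; the cause of the other changes was not tested. Low HoxB genes rest on few reads, 19 to 72 per library for Hoxb6, and so does Hoxa6 on polysomes, at 18 to 77. This limits what can be seen there.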
